A study of Mus musculus with 14 samples.

Results

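The fibroblast growth factor (FGF) receptors and their response genes were followed through RNA sequencing of mouse granule neuron progenitors (GNPs), the proliferating precursors of cerebellar granule neurons. The 10 genes were chosen by name, out of 41381 in the table, for their place in the pathway. They are the receptors Fgfr1, Fgfr2 and Fgfr3, the feedback inhibitors Spry1, Spry2, Spry4, Spred1 and Dusp6, and the transcription factors Etv4 and Etv5. All 10 had a TPM (transcript abundance, scaled for transcript length and library size) of at least 1 in at least 4 libraries and entered the tests. The 14 libraries came from freshly isolated GNPs of pups at postnatal day 7, purified on a Percoll gradient, without regard to the sex of the pups. The 5 WT libraries carried floxed Chd7 without Cre, the 5 Het libraries were Atoh1-Cre::Chd7 f/+, and the 4 Hom libraries were Atoh1-Cre::Chd7 f/f. Every group therefore carried a floxed allele, and the WT group lacked the Cre transgene as well as the deletion. The labels spell the strain C57BL/6 or C56Bl6/J, and the study's methods give the background as C57BL/6N. Atoh1-Cre is active in the granule cell lineage and probably recombines less completely in the posterior lobe, so a Hom library may hold some unrecombined cells. Sequencing was done in 2 batches, the first with WT 1 to 3, the Het libraries 1 to 3 and both Hom 1 and Hom 2 (batch 1), the other with the remaining 6 libraries (batch 2).

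FGF ligands bind receptor tyrosine kinases at the cell surface together with heparan sulphate, and the receptors signal through the RAS and ERK cascade. ERK activity raises transcription of Etv4 and Etv5, which encode ETS factors that carry the response, and of Spry, Spred and Dusp6 genes, whose products dampen the cascade. In the embryo this pathway patterns the midbrain and hindbrain, and lower FGF signalling in the embryonic cerebellum is a known effect of losing Chd7, a chromatin remodeller. The comparison asks whether the same genes differ by genotype in postnatal GNPs.

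None of the 10 genes passed the test in any comparison of genotypes, while 1.41% of all genes tested were called lower and 1.27% higher in Hom against WT. The largest differences between libraries labelled Hom and WT were those of Etv4 (mean TPM 6.56 against 10.95) and Fgfr1 (37.5 against 47.9), and neither passed after adjustment over all genes. Dusp6 and the Sprouty genes varied more between libraries than between genotypes and rose and fell together across the 14 libraries. Outside the 10 genes, the fourth receptor, Fgfr4, was called higher in Hom, with a mean TPM of 19.3 against 6.26 in WT.

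Between 15863 and 16734 genes reached 1 TPM in a library, and TPM keeps no record of depth. Chd7 itself, the targeted gene, ranged from 120.81 to 272.06 TPM in the WT libraries, from 136.77 to 181.3 in the Het libraries and from 125.63 to 185.39 in the Hom libraries. Its Hom change was 0.41 on the log2 scale within batch 1, against the direction of the labels, and -0.77 within batch 2, so groups are named below as labelled. Gene-level TPM covers all exons, including those outside the deleted part, and single exons were not analysed here. By quantitative RT-PCR, the study found significantly fewer Chd7 transcripts in both Het and Hom GNPs than in WT. It also reported loss of Chd7 protein from Hom granule cells by antibody staining. All 12 GNP markers were present at a mean TPM of at least 1, and their summed TPM ran from 3081 to 4326. The summed TPM of 10 markers of differentiating granule neurons was 1900 to 2374 in the Hom libraries, below every Het library (2471 to 2681) and all WT libraries (2293 to 2966) except WT 1, which lay below Hom 3. These 2 libraries are from different batches, and within each batch every Hom library lay below every WT library. That of 11 endothelial markers was 169 to 508 in Hom, 36 to 687 in Het and 50 to 322 in WT, with overlap between all groups over both batches. Within each batch, every Hom library lay above every WT library for these endothelial markers. The sums were 169 and 508 against 50 to 67 in batch 1, and 322.88 and 445.22 against 199.4 and 322.05 in batch 2. The Het libraries overlapped with WT and Hom in each batch. The part of these markers in the Hom changes given below was not tested. WT 5 stood apart, with the lowest summed TPM of 15 Bergmann glia and astrocyte markers (1073, against 2224 to 3315 in the other WT libraries) and the highest Fos (666.36 against 55.35 to 186.03 TPM). WT 1 to 3 also held more RNA of Purkinje cell markers (summed TPM 161 to 208) than the other libraries (59 to 103). In bulk RNA of this kind, fewer cells of a type and less RNA per cell cannot be told apart. Nothing in the labels says that libraries of a group came from separate animals, and p-values then measure the spread between these libraries.

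The receptor Fgfr1, which binds most secreted FGFs in its mesenchymal splice form, was the most abundant of the 10 genes. Fgfr1 (ENSMUSG00000031565; GRCm38 chromosome 8, 25513654 to 25575718, plus strand) stood at 48.2, 61.21, 38.51, 47.7 and 43.9 TPM across WT 1 to 5. Across Het 1 to 5 it stood at 33.43, 39.5, 42.63, 36.19 and 52.19, and across Hom 1 to 4 at 26.73, 36.44, 38.55 and 48.19. The groups overlapped, although in batch 1 both Hom libraries lay below all 3 WT libraries. The mean TPM ran from 47.9 ± 8.39 (SD, n = 5) for WT to 40.8 ± 7.25 (SD, n = 5) for Het and 37.5 ± 8.80 (SD, n = 4) for Hom. The Hom change was -0.38 on the log2(TPM + 1) scale (SE 0.16, 95% interval -0.73 to -0.024), with an unadjusted p of 0.0381 and a limma adjusted p of 0.298 over 17325 genes. In Het it was -0.23 (SE 0.15, limma adjusted p 0.870). Hom differed from WT by -0.62 in batch 1 and -0.084 in batch 2, and -0.24 without Hom 1. With the glial marker level as a covariate, an alternative chosen after seeing the data, it was -0.12.

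Fgfr2 encodes the receptor that glia and epithelia use widely. Fgfr2 (ENSMUSG00000030849; chromosome 7, 130162451 to 133123350, minus strand) stood at 14.84, 18.52, 11.9, 12.91 and 7.04 TPM across WT 1 to 5. Its Het libraries 1 to 5 read 10.02, 12.8, 13.25, 12.46 and 11.76, and its Hom libraries 1 to 4 read 11.06, 12.21, 9.27 and 14.1. Both the highest library (WT 2) and the lowest (WT 5) were WT, so the Het and Hom libraries all lay inside the WT range. The estimate for Hom was -0.085 (SE 0.20, 95% interval -0.51 to 0.34, limma adjusted p 0.897). It took the other sign in batch 2 alone (0.24), without WT 2 (0.028) and with the glial marker level as a covariate (0.36, limma adjusted p 0.102).

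Fgfr3 was the only one of the 3 receptors with a higher mean in Hom. Fgfr3 (ENSMUSG00000054252; chromosome 5, 33721674 to 33737068, plus strand) stood at 8.79, 10.6, 6.47, 8.88 and 6.84 TPM across WT 1 to 5. For Het 1 to 5 the TPM was 7.96, 10.8, 7.16, 7.37 and 8.21, and for Hom 1 to 4 it was 8.31, 14.96, 9.89 and 10.08. The groups overlapped, and Hom 2 was the highest library. In batch 2 both Hom libraries lay above the WT and Het libraries of that batch, whereas in batch 1 the groups overlapped. Against WT, Hom differed by 0.34 (SE 0.17, 95% interval -0.033 to 0.72, limma adjusted p 0.388), and it was 0.19 without Hom 2. The Het change was 0.0035 (SE 0.16, limma adjusted p 0.999).

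**Figure D1:**
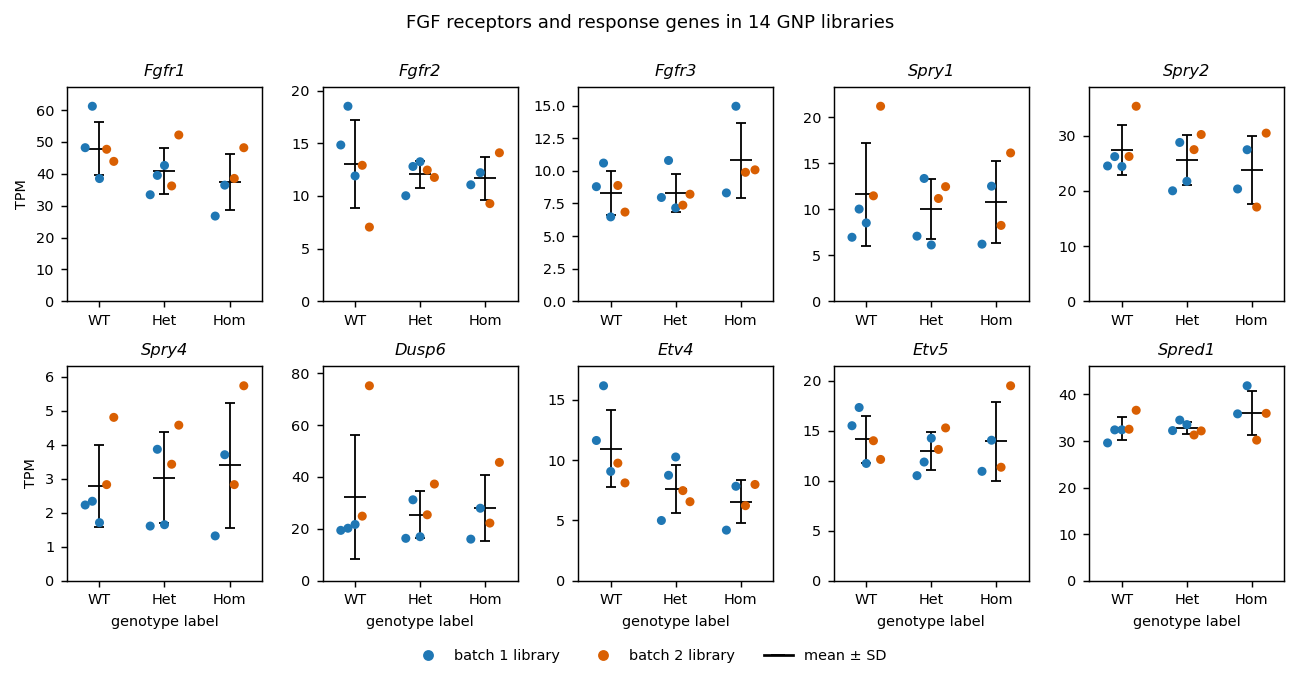
TPM of the 10 genes (y axis, linear from 0) in the libraries labelled WT, Het and Hom (x axis), with batch 1 in blue, batch 2 in orange and black bars for mean ± SD of each group. Hom and WT libraries overlap for every gene except Etv4, whose highest Hom library (7.99) lies just under its lowest WT library (8.12), and WT 5 stands alone for Dusp6 at 75.12.

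The Sprouty genes and Dusp6 encode feedback inhibitors, of which the Sproutys act on the RAS and RAF steps and Dusp6 is a phosphatase that removes the activating phosphates from ERK. None differed by genotype beyond the spread between libraries. The 250 bases before the annotated starts of Dusp6, Spry1 and Spry2 are shown because these genes moved together, and the capitals mark each GGAA, the core of ETS family sites, on either strand (TTCC on the strand shown). The sequences are from RefSeq (GRCm38.p6), which matched 7 of the 10 genes, and run 5′ to 3′ on the strand of the gene. Dusp6 is chr10:99262981-99263230 on the plus strand, Spry1 is chr3:37639697-37639946 on the plus strand, and Spry2 is chr14:105896820-105897069 on the minus strand.
Dusp6: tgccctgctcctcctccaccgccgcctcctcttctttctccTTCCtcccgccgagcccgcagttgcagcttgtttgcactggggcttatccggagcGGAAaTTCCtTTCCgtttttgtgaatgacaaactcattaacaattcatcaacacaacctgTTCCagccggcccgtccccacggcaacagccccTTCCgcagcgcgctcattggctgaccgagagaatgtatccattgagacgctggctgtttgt
Spry1: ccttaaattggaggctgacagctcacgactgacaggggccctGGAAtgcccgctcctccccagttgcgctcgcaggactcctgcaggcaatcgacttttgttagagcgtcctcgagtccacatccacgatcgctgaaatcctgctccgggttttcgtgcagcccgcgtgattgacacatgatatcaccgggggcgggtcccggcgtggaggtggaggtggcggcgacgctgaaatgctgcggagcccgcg
Spry2: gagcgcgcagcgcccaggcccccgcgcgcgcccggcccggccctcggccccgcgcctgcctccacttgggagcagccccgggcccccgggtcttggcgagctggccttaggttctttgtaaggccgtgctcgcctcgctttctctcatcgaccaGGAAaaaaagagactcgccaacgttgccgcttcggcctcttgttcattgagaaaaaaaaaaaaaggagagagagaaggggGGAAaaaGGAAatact
The Dusp6 window held 6 matches of GGAA, the Spry1 window 1 and the Spry2 window 3, with overlapping matches counted. Of 32851 windows of the same length, 93.4% held GGAA (median 3 matches, upper quartile 4). The longer CCGGAA, which contains GGAA and was held by 12.03% of windows, and the AP-1 motif TGANTCA, held by 6.75%, were in none of these 3 windows on either strand. A match of letters is a description and not evidence of a bound site.

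Dusp6 varied most between libraries, with a coefficient of variation of 55.3%. Dusp6 (ENSMUSG00000019960; chromosome 10, 99263231 to 99267489, plus strand) stood at 19.41, 20.23, 21.69, 24.89 and 75.12 TPM across WT 1 to 5. Across Het 1 to 5 it stood at 16.34, 31.19, 16.97, 25.41 and 37.26, and across Hom 1 to 4 at 16.03, 27.94, 22.22 and 45.6. WT 5 held 3.49 times the mean of the other WT libraries, which lay close together at 21.6 ± 2.42 (SD, n = 4). The Hom change was -0.16 (SE 0.32, 95% interval -0.84 to 0.53, limma adjusted p 0.875), and without WT 5 the sign turned (0.14).

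Spry1 followed the same libraries. Spry1 (ENSMUSG00000037211; chromosome 3, 37639947 to 37644598, plus strand) stood at 6.96, 10.03, 8.52, 11.47 and 21.22 TPM across WT 1 to 5. Its Het libraries 1 to 5 read 7.08, 13.36, 6.12, 11.18 and 12.47, and its Hom libraries 1 to 4 read 6.21, 12.52, 8.25 and 16.14. As for Dusp6, WT 5 was the highest library and Hom 4 the second highest, and the groups overlapped. Hom differed from WT by -0.14 (SE 0.27, 95% interval -0.73 to 0.45, limma adjusted p 0.869), and without WT 5 by 0.041.

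Spry2 was the most abundant Sprouty gene and the steadiest of the 3 Sprouty genes. Spry2 (ENSMUSG00000022114; chromosome 14, 105891947 to 105896819, minus strand) stood at 24.51, 26.21, 24.41, 26.23 and 35.33 TPM across WT 1 to 5. For Het 1 to 5 the TPM was 20.01, 28.77, 21.73, 27.47 and 30.21, and for Hom 1 to 4 it was 20.34, 27.45, 17.06 and 30.46. WT 5 was again the highest, and Hom 3 was the lowest. The estimate for Hom was -0.23 (SE 0.17, 95% interval -0.59 to 0.13, limma adjusted p 0.572), with -0.15 without WT 5 and -0.051 without Hom 3.

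Spry4 had the lowest level of the 10 genes, where the pseudocount of 1 dampens a change. Spry4 (ENSMUSG00000024427; chromosome 18, 38586247 to 38601415, minus strand) stood at 2.23, 2.34, 1.71, 2.83 and 4.81 TPM across WT 1 to 5. Across Het 1 to 5 it stood at 1.61, 3.87, 1.65, 3.43 and 4.58, and across Hom 1 to 4 at 1.32, 3.71, 2.83 and 5.74. Hom 4 was highest and Hom 1 lowest, so that the extremes of this gene lay inside 1 genotype. Against WT, Hom differed by 0.10 (SE 0.26, 95% interval -0.46 to 0.67, limma adjusted p 0.906).

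Spred1 encodes a membrane-bound inhibitor of the RAS to RAF step and was the steadiest of all 10 genes, with a coefficient of variation of 9.38%. Spred1 (ENSMUSG00000027351; chromosome 2, 117121374 to 117182279, plus strand) stood at 29.6, 32.4, 32.41, 32.54 and 36.61 TPM across WT 1 to 5. Its Het libraries 1 to 5 read 32.25, 34.5, 33.53, 31.3 and 32.18, and its Hom libraries 1 to 4 read 35.84, 41.87, 30.2 and 35.95. Both Hom libraries of batch 1 lay above the 3 WT libraries of that batch, whereas in batch 2 the groups overlapped. The Hom change was 0.13 (SE 0.087, 95% interval -0.056 to 0.32, limma adjusted p 0.527).

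Etv4 and Etv5 encode PEA3-class ETS factors that are induced by FGF in many tissues, and they differed in their pattern here. Etv4 (ENSMUSG00000017724; chromosome 11, 101769742 to 101785371, minus strand) stood at 11.64, 16.18, 9.07, 9.76 and 8.12 TPM across WT 1 to 5. For Het 1 to 5 the TPM was 5, 8.75, 10.27, 7.48 and 6.56, and for Hom 1 to 4 it was 4.2, 7.84, 6.23 and 7.99. Every Hom library lay below every WT library, while the Het libraries overlapped with both. Etv4 was the only one of the 10 genes whose Hom and WT libraries did not overlap, a pattern that 1.96% of the genes tested showed in this direction and 2.91% in the other. The mean TPM ran from 10.95 ± 3.19 (SD, n = 5) for WT to 7.61 ± 2.02 (SD, n = 5) for Het and 6.56 ± 1.77 (SD, n = 4) for Hom.

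The Hom change of Etv4 was -0.65 on the log2 scale (SE 0.23, 95% interval -1.14 to -0.15), with an unadjusted p of 0.0146 and a limma adjusted p of 0.198. The Het change was -0.47 (SE 0.22, unadjusted p 0.0486, limma adjusted p 0.814). An exact two-sided permutation of the genotype labels within batch gave p = 0.0167 for Hom, the smallest that its 60 arrangements allow, and p = 0.05 for Het over 120 arrangements. With the batch term removed, Etv4 in a Kruskal-Wallis test of all 3 genotypes (exact) had an unadjusted p of 0.00798, and the other 9 genes lay between 0.105 and 0.951. Hom differed from WT by -0.94 in batch 1 and -0.30 in batch 2, and it was -0.43 without Hom 1. With the glial marker level as a covariate it was -0.28 (limma adjusted p 0.563). Glial and Purkinje cell markers lay higher in WT 1 to 3 than in any Hom library. The summed TPM of the 15 glial markers was 2361 to 3315 in WT 1 to 3 and 1298 to 1991 in Hom, and that of the 9 Purkinje cell markers was 161 to 208 and 59 to 76. In WT 4 and WT 5 the glial sums were 2224 and 1073, and the Purkinje cell sums were 74 and 70. Etv4 stood at 9.76 TPM in WT 4 and 8.12 in WT 5, above every Hom library. Whether these markers account for the Etv4 change was not tested. All 15 glial markers and 8 of the 9 Purkinje cell markers had a mean TPM of at least 1, and none was at 0 in all libraries.

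Etv5 showed no such order. Etv5 (ENSMUSG00000013089; chromosome 16, 22381309 to 22439719, minus strand) stood at 15.49, 17.31, 11.72, 13.99 and 12.12 TPM across WT 1 to 5. Across Het 1 to 5 it stood at 10.5, 11.86, 14.24, 13.12 and 15.27, and across Hom 1 to 4 at 10.93, 14.04, 11.34 and 19.48. Its highest library was Hom 4 and its lowest Het 1, and all groups overlapped. The estimate for Hom was -0.047 (SE 0.17, 95% interval -0.41 to 0.32, limma adjusted p 0.939).

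By mean TPM over the 14 libraries, a scale that corrects for transcript length, the order was Fgfr1 (42.4), Spred1 (33.7), Dusp6 (28.6), Spry2 (25.7), Etv5 (13.7), Fgfr2 (12.3), Spry1 (10.8), Fgfr3 (9.02), Etv4 (8.51) and Spry4 (3.05). The ranges of each adjacent pair in this order overlapped between libraries. Fgfr1 exceeded Fgfr2 and Fgfr3 in every library. Spry2 exceeded Spry1, and Spry1 exceeded Spry4, in every library.

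In the comparison of libraries labelled Hom and WT, 0 of the 10 genes were called lower and 0 higher by limma, where 1.41% of all 17325 genes tested were called lower and 1.27% higher. Without adjustment, a p under 0.05 was reached by 2 genes with lower values (Fgfr1 and Etv4) and 0 with higher values, where 6.42% of all genes tested had such a p with lower and 8.51% with higher values. The change was below 0 for 7 of the 10 genes, with a median of -0.11, beside a median of 0.024 over all genes tested. The exact permutation test within batch gave a p under 0.05 for Etv4 alone. For Het against WT, 0 genes were called in either direction (0% of all genes called lower and 0.00577% higher), and Etv4 was the only one with an unadjusted p under 0.05 (2.88% of all genes with lower and 3.2% with higher values). Here 7 of the 10 changes were below 0 and the median was -0.10, beside 0.0074 over all genes. Both contrasts use the same WT libraries. For Hom against Het, 0 genes were called (0.277% of all genes called lower and 0.15% higher), 0 had an unadjusted p under 0.05 (3.13% of all genes with lower and 3.05% with higher values), and the median was 0.021 for the 10 genes and 0.022 for all. The 95% intervals for Hom against WT were widest for Dusp6 and narrowest for Spred1. Those of Etv5 and Spred1 stayed within a change of 0.5 in either direction, and those of the other 8 genes did not.

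**Figure D2:**
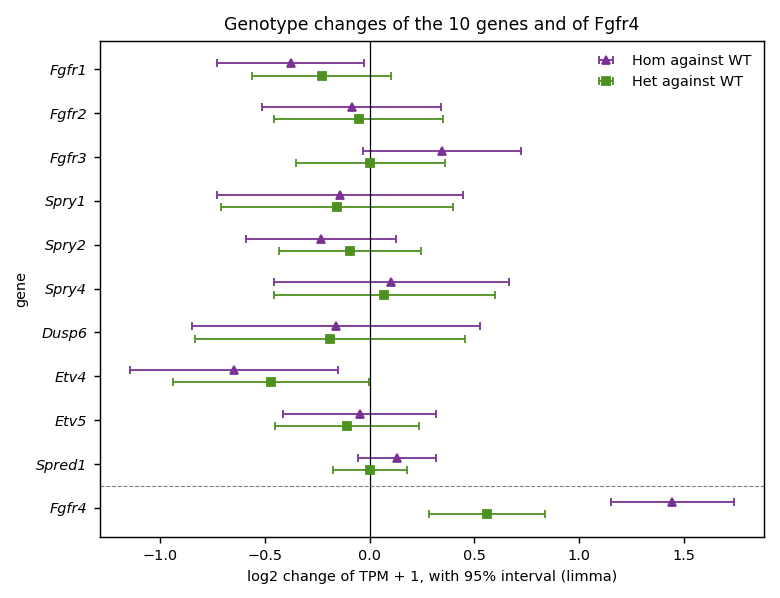
Change in log2(TPM + 1) with its 95% limma interval (x axis) for the 10 genes and, under the dashed line, for Fgfr4 (y axis), with purple triangles for Hom against WT and green squares for Het against WT. The Hom intervals of Fgfr1 (-0.73 to -0.024) and Etv4 (-1.14 to -0.15) exclude 0 before adjustment over all genes, and Fgfr4 lies far to the right at 1.44.

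Between the batches the largest differences were in feedback inhibitors. In the fit with genotype and batch, Dusp6 was higher in batch 2 by 0.74 on the log2 scale (SE 0.26, unadjusted p 0.0129, limma adjusted p 0.0746), with batch means of 21.2 and 38.4 TPM. Spry4 was 0.62 higher (SE 0.21, limma adjusted p 0.0683; means 2.31 and 4.04) and Spry1 0.55 higher (SE 0.22, limma adjusted p 0.114; means 8.85 and 13.5). None of the 10 genes was called, where 5.61% of all genes were called lower and 7.88% higher in batch 2, and these 3 were the only ones with an unadjusted p under 0.05, which 12.5% of all genes reached with lower and 16.4% with higher values. Without Het 2, the batch 1 library highest for all 3, each passed, with changes of 0.84 for Dusp6, 0.71 for Spry4 and 0.65 for Spry1 and adjusted p of 0.0305 to 0.0462. Spry4 also passed without Hom 2 (0.73, limma adjusted p 0.0382). Other alternatives made the changes smaller. The Dusp6 change was 0.49 without WT 5. With Het 3 placed in batch 2, the change was 0.38 for Spry1 and 0.46 for Spry4. None of these passed. The other 7 genes changed by -0.21 to 0.19 between batches. The median over the 10 genes was 0.13, beside 0.022 over all genes.

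The Hom effect was also compared between batches as an interaction term. No gene of the 10 was called, where 0.0115% of all genes were called lower and 0% higher. The smallest unadjusted p was 0.0374 for Spred1, whose Hom change was 0.29 in batch 1 and -0.065 in batch 2 (difference -0.36, SE 0.15, limma adjusted p 0.263). For Etv4 the difference was 0.64 (SE 0.46, limma adjusted p 0.502) and for Fgfr1 0.53 (SE 0.32, limma adjusted p 0.411).

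Across the 14 libraries 8 of the 10 genes fell into 2 sets that moved together, described here after the values were seen. Fgfr3 and Spred1 were placed in neither, although Spred1 had some relations with the first set, given below. Relations were computed on log2(TPM + 1) after the batch means were removed, and tested by 100000 permutations of the libraries within batch with Benjamini-Hochberg adjustment over 45 pairs. Of these, 14 passed by Pearson r, of which 10 also passed by Spearman rho. All 6 pairs among Spry1, Spry2, Spry4 and Dusp6 were among them, with Pearson r between 0.76 and 0.92 and Spearman rho between 0.83 and 0.93 (adjusted permutation p 9e-04 to 0.00865 for r and 4.5e-04 to 0.00373 for rho). These r did not rest on WT 5, without which they were 0.76 to 0.94, and lay at 0.77 to 0.90 without the 2 libraries farthest from the median. They were 0.90 to 0.94 within batch 1 and 0.74 to 0.96 within batch 2, and 0.85 to 0.91 when the genotype means were also removed. Hom 1, Het 1 and Het 3 were the 3 lowest libraries for Spry4 and Dusp6, and WT 5 and Hom 4 were the 2 highest for all 4 genes, so each end held more than 1 genotype.

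The second set held Fgfr1, Fgfr2, Etv4 and Etv5. All 6 of its pairs passed by r, which lay between 0.63 and 0.87 (adjusted permutation p 0.00437 to 0.0454). By rho, between 0.61 and 0.87, 4 of them passed, and Etv4 did not pass with Fgfr2 (adjusted permutation p 0.0815) or with Etv5 (0.103). Within batch 1 the r were 0.87 to 0.97 and within batch 2 only 0.22 to 0.72, and without the 2 libraries farthest from the median they were 0.46 to 0.85. The strongest pair was Fgfr1 with Etv4 (r 0.87). The 16 pairs between the sets had r between -0.25 and 0.44 and none passed (adjusted permutation p 0.153 to 0.879). These r depended on WT 5, without which they were all positive, at 0.20 to 0.64. Without the 2 libraries farthest from the median they were 0.062 to 0.72. The r without these libraries were not tested, so the sets are not shown to be independent. The remaining 2 pairs that passed joined Spred1 with Spry1 (r 0.65) and with Dusp6 (r 0.61), and neither passed by rho (adjusted permutation p 0.115 and 0.103). When the genotype means were also removed, the r of Spred1 was 0.80 with Spry1, 0.79 with Spry2, 0.59 with Spry4 and 0.75 with Dusp6. These were not tested. No pair with Fgfr3 passed (lowest adjusted permutation p 0.135 for r). Etv4 and Etv5, which FGF signalling induces along with the Sprouty genes in other settings, passed by r with Fgfr1 and Fgfr2 and did not pass with the inhibitors, and the difference between these r was not tested.

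**Figure D3:**
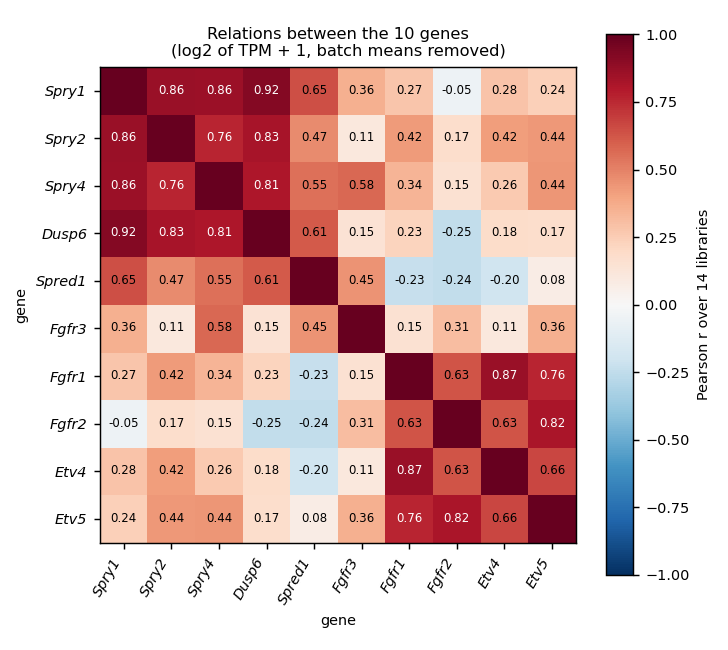
Pearson r between each pair of the 10 genes (both axes) over 14 libraries on log2(TPM + 1) with the batch means removed, with red for positive and blue for negative r. The upper left block of Spry1, Spry2, Spry4 and Dusp6 holds r of 0.76 to 0.92, the lower right block of Fgfr1, Fgfr2, Etv4 and Etv5 holds 0.63 to 0.87, and the fields between them are pale.

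The 10 genes were also set beside the summed TPM of marker lists for 11 cell types and beside Fos and Egr1, in a family of 130 relations. The only one to pass was Fgfr2 with the Bergmann glia and astrocyte markers (r 0.91, rho 0.93, adjusted permutation p 0.0039 for r). It was 0.89 without WT 5, 0.84 without WT 2 and WT 5, 0.88 within batch 1 and 0.97 within batch 2. The other genes of the second set had r of 0.70 (Fgfr1), 0.72 (Etv4) and 0.72 (Etv5) with the glial markers, and none passed (adjusted permutation p 0.168 for each). Without WT 5 these r were 0.81, 0.87 and 0.71. They were 0.91, 0.89 and 0.79 within batch 1 and 0.30, 0.39 and 0.63 within batch 2, and these values were not tested. Etv4 had an r of 0.78 with the Purkinje cell markers (adjusted permutation p 0.168), which fell to 0.56 without WT 1 and WT 2. Fgfr3 had an r of 0.044 with the glial markers and of 0.78 with the inhibitory interneuron markers (adjusted permutation p 0.168), which fell to 0.36 without Het 2 and Hom 2. Dusp6 had an r of 0.56 with Fos, and 0.058 without WT 5. Etv4 also had an r of 0.56 with Fos (adjusted permutation p 0.176), which rose to 0.82 without WT 5. That r of Etv4 was 0.87 within batch 1, 0.23 within batch 2 and 0.20 when the genotype means were also removed. The r without WT 5 and within batches were not tested. WT 5 was the highest library for Fos, Egr1, Dusp4, Dusp5, Dusp6, Spry1 and Spry2 alike, with 54.3 TPM of Dusp5 against 10.87 to 12.73 in the other WT libraries.

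**Figure D4:**
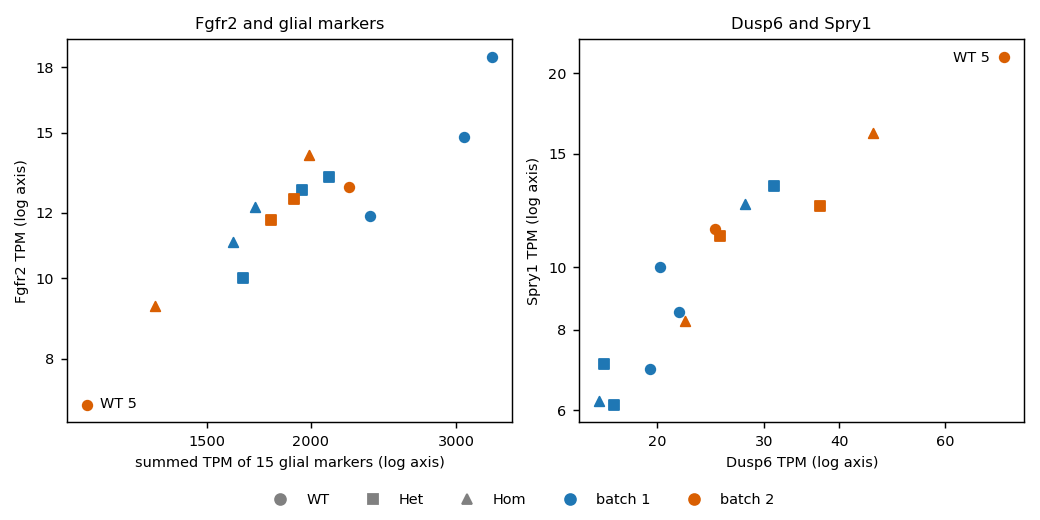
Left, Fgfr2 TPM (y axis) against the summed TPM of 15 glial markers (x axis). Right, Spry1 TPM (y axis) against Dusp6 TPM (x axis). All axes are log scales, each point is a library, shapes are genotypes and colours are batches. Fgfr2 rises with the glial markers from WT 5 (7.04) to WT 2 (18.52), and in the right panel WT 5 lies at the top right with 21.22 and 75.12.

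Among the genes outside the 10, those closest in pattern were chosen by Pearson r over the 14 libraries after removal of the batch means, and are given as a description. For Dusp6 they were Klf4 (r 0.99), Arrdc3 (0.95) and Tcim (0.94), and for Spry1 they were Vamp3 (0.93), 2810013P06Rik (0.93) and Jmjd1c (0.91). Vamp3 was also among the closest to Spry2 (0.87) and Spry4 (0.92), next to Zcchc3 (0.88) and 2810013P06Rik (0.86) for Spry2 and to Nedd9 (0.93) and Sgk1 (0.92) for Spry4. Fgfr2 was nearest to Pcsk6 (0.98), AI464131 (0.97) and Adora1 (0.95), and Fgfr1 to Nwd1 (0.93), Cacna2d2 (0.92) and Arhgef26 (0.91). Etv4 was nearest to Rfx4 (0.95), Shc3 (0.94) and Garem2 (0.91), and Etv5 to Eepd1 (0.95), Lrrc75b (0.91) and Erich2 (0.90). Fgfr3 was nearest to Phyhd1 (0.92) and Klhl3 (0.91), and Spred1 to Mindy1 (0.94), Ralgps2 (0.92) and Bmpr2 (0.92). Each was picked as the highest of 17325 genes, so these r are selected values.

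The rest of the pathway was read from lists of its parts. The counts of called genes in each list stand beside 1.41% of all genes tested called lower and 1.27% higher in Hom against WT. Of the 4 other receptor genes listed (Fgfr4, Fgfrl1 and the co-receptors Klb and Kl), 2 passed the filter on low values and 1 was called higher in Hom, namely Fgfr4, the receptor that binds the endocrine FGFs in liver. Fgfr4 (ENSMUSG00000005320; chromosome 13, 55152640 to 55168759, plus strand) stood at 6.18, 5.04, 5.17, 6.63 and 8.27 TPM across WT 1 to 5. Its Het libraries 1 to 5 read 10.08, 7.54, 8.11, 9.08 and 14.08, and its Hom libraries 1 to 4 read 18.51, 14.16, 21.6 and 23.11. Every Hom library lay above every Het library, as for 1.11% of the genes tested. The Het and WT libraries overlapped only through Het 2, Het 3 and WT 5. Against WT, Hom differed by 1.44 on the log2 scale (SE 0.14, 95% interval 1.15 to 1.74, limma adjusted p 7e-05), a 2.72-fold higher value of TPM + 1. It was 1.42 in batch 1 alone (limma adjusted p 0.0178) and 1.47 in batch 2 alone (limma adjusted p 0.120). The Het change was 0.56 (SE 0.13, limma adjusted p 0.296), which did not pass, and Hom against Het was 0.88 (SE 0.14, limma adjusted p 0.0117). The call for Hom against Het was lost without Hom 1 (limma adjusted p 0.0673) and without Hom 4 (0.0513). Fgfrl1, a receptor without a kinase domain, had means of 5.95, 5.50 and 5.75 TPM in WT, Het and Hom.

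Of 18 secreted FGF genes listed, 6 passed the filter and 1 was called lower in Hom. Fgf9, the most abundant ligand, had means of 28.1, 27.1 and 25.3 TPM in WT, Het and Hom (Hom change -0.14, SE 0.13, limma adjusted p 0.669). Fgf5 was lower in Hom, with means of 2.27 ± 0.46 (SD, n = 5), 1.97 ± 0.45 (SD, n = 5) and 0.97 ± 0.29 (SD, n = 4) TPM (change -0.72, SE 0.17, limma adjusted p 0.0391). This call was lost on leaving out any of the WT or Hom libraries or Het 1 (limma adjusted p 0.0503 to 0.124). Fgf8, the ligand of the embryonic isthmus, had 1.05, 1.33, 0.96, 1.17 and 1.56 TPM in WT 1 to 5 and 4.09, 1.65, 2.36 and 3.31 in Hom 1 to 4. Every Hom library lay above every WT library, a pattern that 2.91% of the genes tested showed. The change of 0.75 (SE 0.19, limma adjusted p 0.0528) did not pass. When single libraries were left out, it passed only without Hom 2 (0.92, limma adjusted p 0.0227). Fgf1 (means 1.93, 1.27 and 1.02) and Fgf2 (1.93, 1.05 and 1.18) did not pass either.

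Of the 4 intracellular FGF homologous factors, which bind sodium channels and not receptors, all passed the filter and Fgf13 was called lower in Hom (means 62.0, 56.8 and 49.5 TPM, change -0.33, SE 0.075, limma adjusted p 0.0340). It no longer passed on leaving out WT 2 to 5, Het 1, Hom 1 or Hom 4 one at a time (limma adjusted p 0.0507 to 0.123). Fgf11 was next in abundance, at 14.3, 14.6 and 13.8 TPM. Of the 24 adaptors and members of the ERK cascade, all were tested and 0 were called by limma (before adjustment, 2 with lower and 3 with higher values had a p under 0.05, beside the 6.42% and 8.51% of all genes), with a median change of 0.013.

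Of 12 further feedback genes listed, 10 were tested and 1 was called. Flrt3, a membrane protein that interacts with FGF receptors, was lower in Hom, with means of 25.1, 18.9 and 14.9 TPM (change -0.70, SE 0.16, limma adjusted p 0.0353). Flrt3 did not pass on leaving out any 1 of WT 2 to 5, Hom 1, Hom 3 or Hom 4 (limma adjusted p 0.0505 to 0.103). Spred2, the most abundant inhibitor, had 38.4, 38.1 and 39.1 TPM. Of 9 further response genes, Ccnd1, which encodes the G1 cyclin D1, was called higher in Hom, with means of 94.3, 124 and 166 TPM (change 0.80, SE 0.080, limma adjusted p 1.11e-04). The study used the Ccnd1 level to tell proliferating from postmitotic granule cells, cultured with or without Sonic hedgehog. Whether FGF signalling has a part in the Ccnd1 change was not tested. Every Hom library lay above every WT library for Ccnd1, as for 2.91% of the genes tested, and its call held without any single library. Fos, the most abundant of these by mean, had 246 ± 240 (SD, n = 5), 78.2 ± 38.0 (SD, n = 5) and 52.2 ± 13.9 (SD, n = 4) TPM and did not pass (change -1.80, SE 0.55, limma adjusted p 0.120). Without WT 4, the WT library with the lowest Fos, it passed (-2.35, limma adjusted p 0.0138).

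Heparan sulphate is the co-receptor that lets FGFs bind, and its sulphation sets which ligands are held. Of 31 genes listed for its synthesis, editing and core proteins, 27 were tested, 3 were called lower in Hom and 1 higher. Of all genes tested, 1.41% were called lower and 1.27% higher. The lower genes encode sulphotransferases. Ndst3, an N-sulphotransferase, had means of 103, 75.2 and 37.9 TPM in WT, Het and Hom (change -1.44, SE 0.18, limma adjusted p 6e-04), and it was also called in Hom against Het (-0.98, SE 0.18, limma adjusted p 0.0331). Hs3st5, a 3-O-sulphotransferase, had 14.3, 8.79 and 5.55 TPM (change -1.22, SE 0.12, limma adjusted p 1.16e-04). Hs6st3, a 6-O-sulphotransferase, had 17.8, 14.1 and 11.2 TPM (change -0.62, SE 0.13, limma adjusted p 0.0225). These 3 genes are in the list that the study selected on these same libraries as lower in Hom, so their direction is not independent evidence. The core protein gene Gpc1 was higher (70.8, 80.8 and 93.3 TPM, change 0.35, SE 0.084, limma adjusted p 0.0445).

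The calls of Ndst3 and Hs3st5 for Hom against WT held without any single library. Hs6st3 did not pass on leaving out WT 2, Hom 1, Hom 3 or Hom 4 (limma adjusted p 0.0573 to 0.0712), nor did Gpc1 on leaving out any 1 of the WT libraries, of Het 1, 2 and 5, or of Hom 1, 3 and 4 (0.0543 to 0.114). For Hom against Het, Ndst3 did not pass on leaving out any 1 of WT 2, Het 1, 2 and 4, or Hom 1, 3 and 4 (0.0572 to 0.101). The most abundant genes of the list, Glce (216, 217 and 205 TPM) and Sdc3 (158, 157 and 142), were not called.

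**Figure D5:**
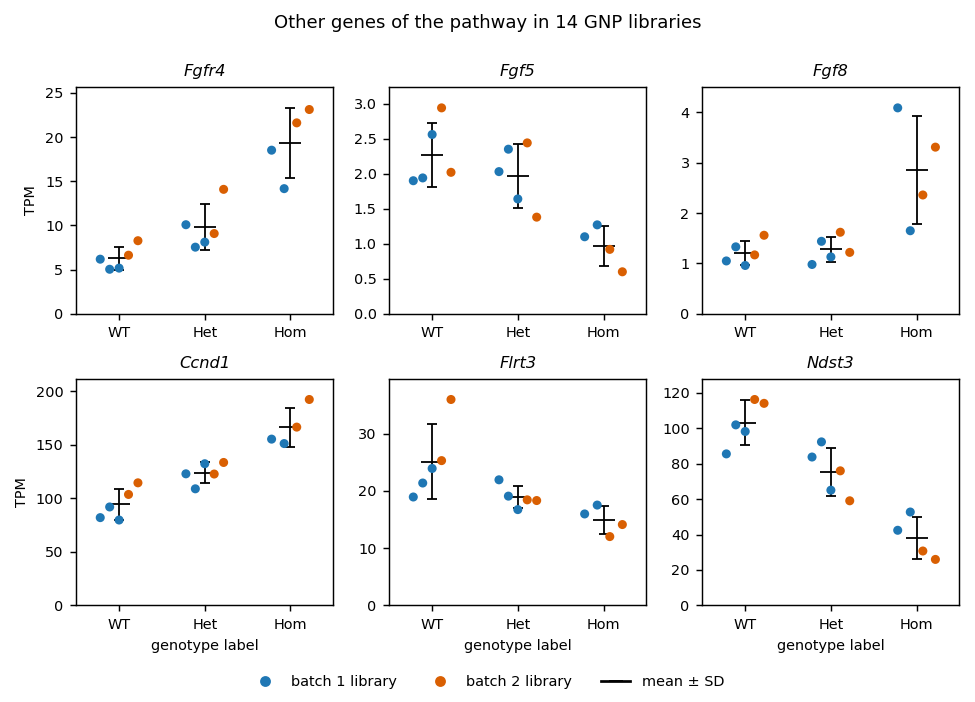
TPM (y axis, linear from 0) of 6 other genes of the pathway in libraries labelled WT, Het and Hom (x axis), with batch 1 in blue, batch 2 in orange and black bars for mean ± SD. Hom libraries lie above WT libraries for Fgfr4, Fgf8 and Ccnd1 and below them for Fgf5, Flrt3 and Ndst3, and of these Fgf8 did not pass the test. Of all genes tested, 2.91% had every Hom library above every WT library and 1.96% below.

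In Het against WT, 0 of the 82 genes tested from these lists were called by limma, and an unadjusted p under 0.05 was reached by 7 lower and 5 higher genes, beside 2.88% of all genes lower and 3.2% higher. Between the batches, the genes called higher in batch 2 included Fgfr4 (0.40 on the log2 scale), Dusp7 (0.49), Ccnd1 (0.22), Gab1 (0.25), Hras (0.25) and 6 heparan sulphate genes, the largest being Sulf2 (0.82), Hs6st1 (0.39), Sdc3 (0.35) and Gpc1 (0.28), and Nras was called lower (-0.16). Of all genes tested, 7.88% were called higher and 5.61% lower in batch 2. With Het 3 placed in batch 2, only Ccnd1, Hs6st1 and Gpc1 of these named genes passed, and the others had limma adjusted p of 0.0823 to 0.314. Fgfr4, Dusp7, Ccnd1, Gab1, Nras and Sulf2 also failed to pass on leaving out 1 of several libraries from either batch (limma adjusted p up to 0.1001), while Hras, Hs6st1, Sdc3 and Gpc1 passed each time.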

How the data were processed

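RNA was sequenced from 14 GNP libraries (TruSeq total RNA, single-end reads). The authors aligned reads with Bowtie 1.0.0 to the mm10 Ensembl transcriptome, estimated abundance with RSEM 1.2.15 at default parameters, and deposited 1 table of TPM values. The study's methods give only an approximate read number that is the same for every sample. TPM is a share of a fixed total and keeps no read number, so the exact depth of single libraries is unknown and no counting error was computed.

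Analyses used log2(TPM + 1) for the 17325 genes that reached a TPM of 1 in 4 or more libraries, which understates changes of low genes. limma 3.58.1 in R 4.3.3 (trend) was fitted to all 14 libraries with genotype and batch, p-values were two-sided with Benjamini-Hochberg adjustment over all genes, and a gene was called at an adjusted p under 0.05. Batches follow the study's methods, and columns with control headings were read as WT libraries by their number. The study's own approach, a rank test after ComBat, was represented by an exact Kruskal-Wallis test after removal of the batch term, which does not count the degree of freedom of the batch. ComBat was not run. The code was tested on simulated data. Gene names and positions are GENCODE on GRCm38.

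The 10 genes, the lists and the tests were chosen with earlier results of these data known. The rule named Chd7, the 10 genes, secreted FGFs and further receptors with a mean TPM of at least 1, called genes of each list (at most 4 in each direction), the 2 most abundant genes of each list, and the 3 genes most like each member. Dusp4, Dusp5 and Egr1 were named after their values were seen, to describe WT 5. Alternatives were the pseudocount, filters, scaling, batch handling, a replicate block, array weights, libraries left out one at a time, exact permutation and, chosen after seeing the data, a glial covariate. Promoters of Fgfr1, Etv4 and Spry4 are not analysed here. Some genes that the rule names are not reported here.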

Additional observations from a re-analysis of the deposited data

Results flagged for a closer look

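A library stood apart from the rest of its group, by Dixon's test at 95%, in 4 of 66 groups of TPM values examined, where chance marks about 1 in 20. WT 5 was high for Dusp6 (75.12 TPM, against 19.41 to 24.89 in the other WT libraries) and for Spry2 (35.33 against 24.41 to 26.23). Both genes lie in the set that moved together, so these are not separate events, and the same library had the highest Fos and the lowest glial marker sum. Het 2 was high for Fgfr3 (10.8 TPM, against 7.16 to 8.21 in the other Het libraries). WT 3 was high for Fgf9 (33.43 TPM). The Hom effect of no gene among the 10 differed between batches past the threshold.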

How the results depend on the processing

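For Hom against WT, Het against WT and Hom against Het, the count of the 10 genes called by limma was 0 under every alternative run. For batch 2 against batch 1, 1 gene (Spry4) was called after quantile normalization, and between 0 and 3 on leaving out single libraries. The exact Kruskal-Wallis test put 1 gene (Etv4) past an unadjusted p of 0.05. The causes were not tested. Of 1057 alternative values of the 10 genes, 85 changed sign and 6 passed where the reported adjusted p had not. These include Etv4 by exact permutation, whose p of 0.0167 is unadjusted and so was held to a looser threshold. None of the 10 genes had a reported call, so no call could be reversed. The r between same-numbered libraries was -0.23 to 0.26. It was not compared with other pairs, and some same-numbered libraries lie in different batches, so it cannot decide whether replicate numbers pair the samples. With the replicate block 0 of the 10 genes were called and Etv4 had a Hom change of -0.69 (adjusted p 0.199). With that block Fgf13, Fgf5, Flrt3, Gpc1 and Hs6st3 no longer passed for Hom, nor Ndst3 for Hom against Het. Of the other genes called for Hom, Ndst3 passed under all 28 alternatives, and Fgfr4, Ccnd1 and Hs3st5 under all but batch 2 alone (adjusted p 0.120, 0.114 and 0.0880). Hs6st3 did not pass under 9, Flrt3 under 12, Fgf13 under 13, Gpc1 under 19 of 28, and Fgf5 under 15 of 27. Glial adjustment moved Fgfr2 from -0.085 to 0.36 and Etv5 from -0.047 to 0.28. Without the exact depth per library, low genes such as Spry4, Fgf5 and Fgf8 carry a counting error that was not computed.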
